A study of Mus musculus with 31 samples.

Results

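The genes described here are 31 genes of cholesterol and fatty acid synthesis, found by symbol among the 41255 gene symbols of both expression tables. They were chosen as the genes of the sterol regulatory element-binding proteins (SREBPs) and their regulators, a sterol carrier and enzymes whose genes SREBPs are known to control. By role they were 5 SREBP regulators, 1 sterol transport gene, 7 enzymes from acetyl-CoA condensation to farnesyl diphosphate, 10 enzymes of the sterol branch, and 8 genes of fatty acid synthesis and desaturation. The cells were Ba/F3, an interleukin-3 dependent mouse lymphoid line, and all clones carried a retroviral human RPL10 cDNA together with a short hairpin RNA against the endogenous mouse Rpl10. The R98S clones (11, 13 and 35) expressed the R98S mutant of this large-subunit ribosomal protein, which occurs in T-cell acute lymphoblastic leukemia, and the WT clones (28, 29 and 36) expressed the wild-type protein. Each line was a single-cell clone, so a difference between genotypes rests on 3 clones against 3. Total mRNA was sequenced in 9 R98S and 8 WT libraries, and polysomal RNA, from gradient fractions with 2 or more ribosomes per mRNA, in 8 R98S and 6 WT libraries. Each library carried a replicate number of 1, 2 or 3, and 14 cultures had both kinds of library. The question was whether the R98S ribosome changes the level of these mRNAs, the amount of them on polysomes, or the ratio of both.

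SREBPs are made as membrane precursors of the endoplasmic reticulum. Scap escorts them to the Golgi when membrane sterol is low, while Insig proteins hold the Scap and SREBP complex back when sterol is plentiful, and the released transcription factor switches on the enzymes of sterol and fatty acid synthesis. Dividing lymphoid cells use both pathways to build membranes, and the mevalonate pathway also supplies isoprenoids for protein prenylation.

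The total mRNA libraries held 9338671 to 22059792 reads on genes and the polysomal libraries 8831180 to 20754046. The mouse Rpl10 row ran from 901.4 to 2984.1 normalized counts in R98S total mRNA and from 620.3 to 5715.2 in WT, a log2 difference of −0.08 (limma adjusted p = 0.885). In polysomal RNA it was lower in R98S, at 666.4 to 2045.6 against 1099.5 to 5567.3 (−1.20, limma adjusted p = 0.0490). This row cannot show which RPL10 cDNA a clone carried. Of 11 early B lymphoid markers, 8 were under 10 normalized counts in every library of both kinds, among them Pax5, Ebf1, Vpreb1, Igll1, Rag1 and Rag2. The other 3 were present: Cd79a, a chain of the B cell receptor, ran from 705.5 to 1293 in total mRNA and from 682.2 to 2283 in polysomal RNA, its partner Cd79b from 149 to 590.9 and from 118.6 to 1288, and the leukocyte antigen gene Ptprc from 2680 to 8607 and from 674.8 to 2412. The lymphoid label thus showed in some of these markers and not in others. The 3 IL-3 receptor genes summed to medians of 170100 in R98S and 74460 in WT total mRNA, and to 108900 and 34410 in polysomal RNA. Myeloid and mast cell markers summed to 219.5 to 2588 in R98S and 114.4 to 404.5 in WT total mRNA, with Elane, Csf1r and Itgam under 10 throughout, and to 215.5 to 1875 and 86.88 to 516.5 in polysomal RNA. Of 5 T lymphoid markers Cd4 and Cd8a stayed under 10, Cd3d reached 97.44 (total) and 285.4 (polysomal), and Cd3g 176.7 and 36.61. Their sum had a median of 63.16 in R98S and 53.22 in WT total mRNA, and of 70.68 (34.7 to 291.9) in R98S and 26 (4.62 to 45.92) in WT polysomal RNA. The 4 stromal markers summed to at most 12.03. The part of these differences in the results was not tested.

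The upstream sequences of 6 members called without the replicate block that have a listed start, and of Hmgcs1, are shown because the 31 genes were grouped by a shared control of transcription. RefSeq (GRCm38.p6) listed a start for 24 of the 31 members and not for Stard4, Fdps, Fdft1, Sqle, Scd1, Scd2 and Fads1. In a window from 250 bases before to 50 bases after each start, the sterol regulatory element TCACNCCAC, searched on both strands, matched 1 of 24 members, Hmgcs1, or 4.2%, against 1.44% of all genes and 1.24% of all promoters in the table. CCAAT, the box bound by NF-Y, searched on both strands, matched 19 of 24 members, or 79.2%, against 41.06% of all genes and 37.41% of all promoters. The sequences run 5′ to 3′ over the last 150 bases before the start, with matches in capitals (ATTGG is CCAAT on the other strand). They lie at chr13:119690201-119690350 (plus strand) for Hmgcs1, chr17:12960726-12960875 (minus strand) for Acat2, chr3:89454391-89454540 (plus strand) for Pmvk, chr8:122443423-122443572 (minus strand) for Mvd, chrX:8193513-8193662 (minus strand) for Ebp, chr19:10101504-10101653 (minus strand) for Fads2 and chr7:143830064-143830213 (plus strand) for 1 of the 3 listed starts of Dhcr7. A match is a description of the letters and not evidence of binding.
Hmgcs1: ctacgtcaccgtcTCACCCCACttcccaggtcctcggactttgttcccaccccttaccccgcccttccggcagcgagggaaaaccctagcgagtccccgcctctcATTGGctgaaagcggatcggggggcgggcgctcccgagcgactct
Acat2: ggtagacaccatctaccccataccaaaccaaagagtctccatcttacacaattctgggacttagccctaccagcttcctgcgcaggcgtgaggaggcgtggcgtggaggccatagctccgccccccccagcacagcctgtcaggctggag
Pmvk: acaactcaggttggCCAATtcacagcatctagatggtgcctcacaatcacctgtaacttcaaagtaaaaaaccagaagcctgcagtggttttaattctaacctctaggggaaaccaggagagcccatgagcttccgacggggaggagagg
Mvd: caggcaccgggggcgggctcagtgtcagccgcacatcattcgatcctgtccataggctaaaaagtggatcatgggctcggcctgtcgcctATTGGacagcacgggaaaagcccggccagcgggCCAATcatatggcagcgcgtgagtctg
Ebp: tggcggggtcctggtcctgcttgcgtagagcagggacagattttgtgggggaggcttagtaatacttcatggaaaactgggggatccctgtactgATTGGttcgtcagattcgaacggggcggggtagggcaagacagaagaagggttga
Fads2: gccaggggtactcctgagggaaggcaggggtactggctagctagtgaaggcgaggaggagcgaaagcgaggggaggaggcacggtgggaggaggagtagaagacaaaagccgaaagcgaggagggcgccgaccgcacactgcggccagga
Dhcr7: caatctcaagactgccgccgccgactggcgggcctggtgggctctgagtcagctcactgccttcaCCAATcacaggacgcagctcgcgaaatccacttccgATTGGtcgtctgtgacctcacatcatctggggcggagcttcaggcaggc
In Hmgcs1 the element began 137 bases and the CCAAT box 45 bases before the start, without overlap. Acat2 and Fads2 had no capitals in the stretch shown, and Mvd and the start of Dhcr7 shown each had a pair of CCAAT boxes. The starts of Dhcr7 and Pmvk shown are the ones with a match: the other 2 listed starts of Dhcr7 and the second one of Pmvk had none in the same 150 bases.

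The per-length level of the members differed widely in the same cells. In WT total mRNA, Scd2, a stearoyl-CoA desaturase, stood at 3859.7 ± 1207.6 normalized counts per kilobase of exon (SD, n = 8), followed by Fads1 at 1935.5 ± 436.9, and the next 4 genes in order were Acly, Fads2, Srebf2 and Stard4. Acly, at 960.4 ± 109.7, and Fads2, at 947.6 ± 157.9, lay within each other's spread. Among the enzymes of the sterol pathway Sqle led with 571.2 ± 94.2 per kilobase, and Tm7sf2, a sterol reductase, was lowest with 34.7 ± 3.33. Idi1, at 496.7 ± 187.9, lay within the spread of Sqle. In R98S total mRNA Idi1 stood higher, at 470.0 ± 235.7 against 417.7 ± 87.8 for Sqle. The other desaturase gene, Scd1, ran from 0 to 4.767 normalized counts over the 17 total mRNA libraries and from 0 to 2.398 over the 14 polysomal libraries. Scd1 was below the mean of 10 normalized counts required for a test, so 30 of the 31 members were tested in each comparison.

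In total mRNA 6 members were lower and 1 was higher in R98S cells. The 6 were Fads1 and Fads2, which desaturate polyunsaturated fatty acids, the mevalonate pathway enzymes Pmvk, Mvd and Fdps, and squalene epoxidase (Sqle), and the higher one was Dhcr7, the reductase that makes cholesterol from 7-dehydrocholesterol. The test was limma's moderated test on log2(normalized count + 1), with p-values adjusted over all genes by Benjamini-Hochberg and a threshold of 0.1. Over all 11133 genes tested 15.8% were lower and 14.5% higher in R98S at that threshold, so the 6 lower members of 30 stand near the background of all genes, and the 1 higher member below it. The number of higher members was 4 without WT clone 29 of number 1 and 3 with clone means. It was 3 without number 1 and 0 without number 3. In these fits 34.8%, 28.1%, 23.6% and 11.9% of all genes were called, both directions together. The median log2 difference was −0.09 over the 30 members and 0.00 over all genes. Libraries of one clone are repeats of the same line, so the p-values measure the spread between libraries, part of which may be technical. In bulk libraries fewer cells expressing a gene and less of its RNA per cell cannot be told apart.

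**Figure D1:**
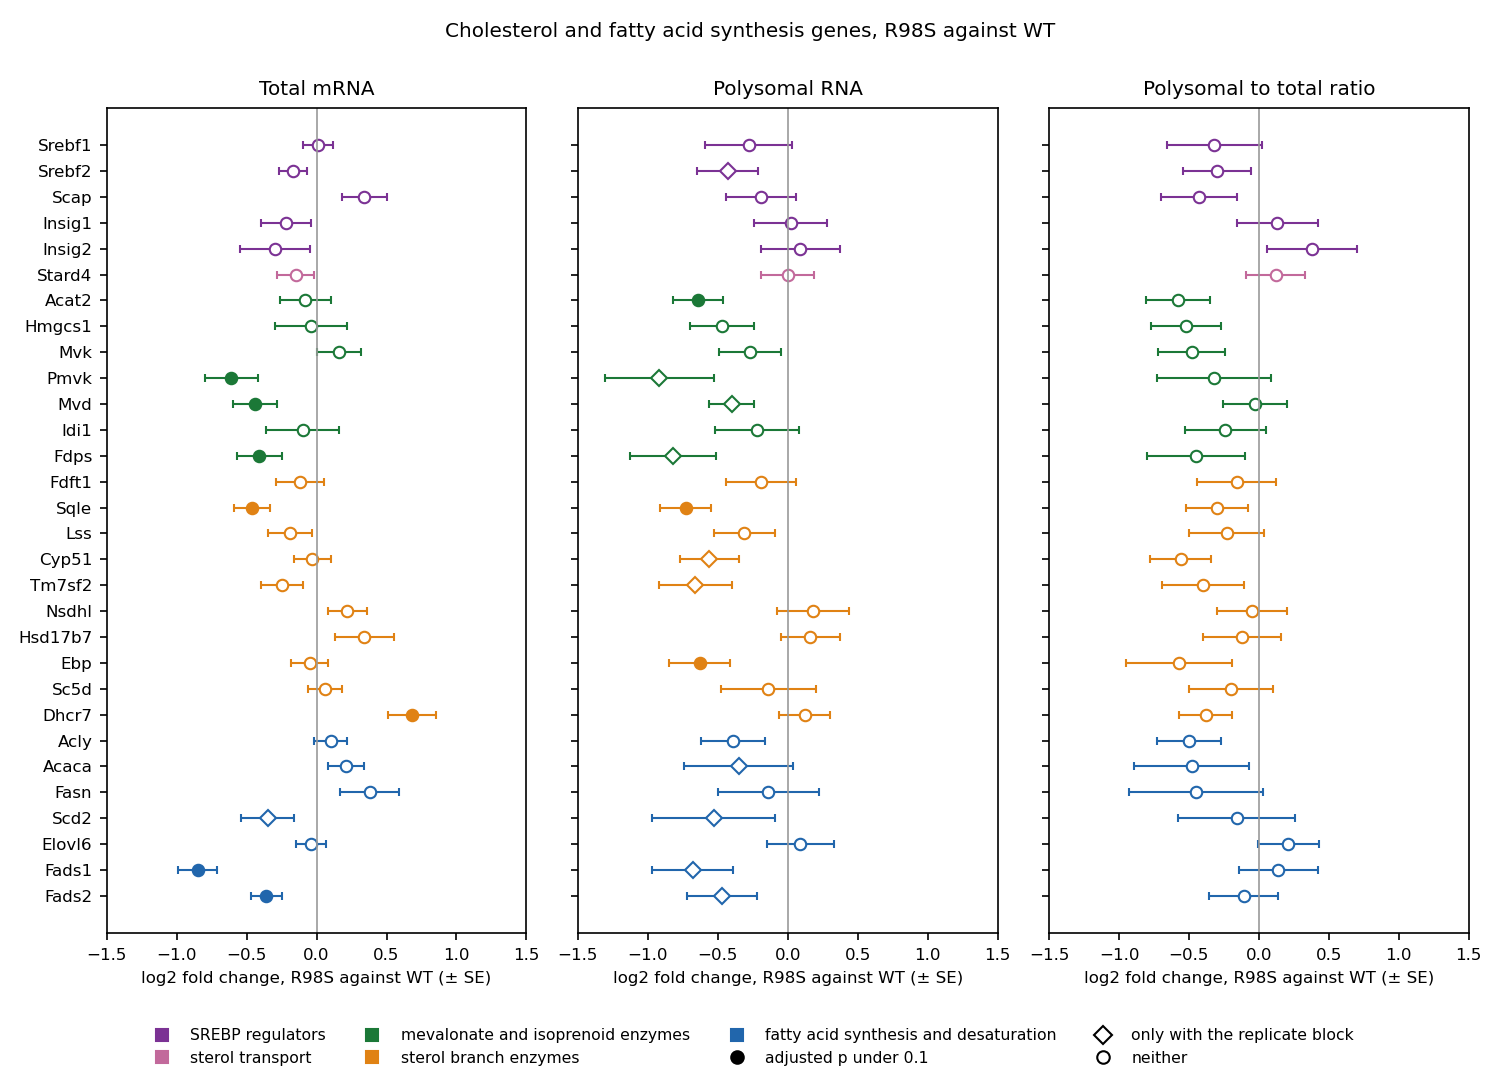
Log2 fold change of each of 30 members in R98S against WT (x axis, ± SE) in total mRNA, polysomal RNA and their ratio, with genes on the y axis colored by role. Filled circles passed an adjusted p of 0.1, diamonds only when the replicate number was in the model: 6 lower and 1 higher genes were filled in total mRNA, 3 lower in polysomal RNA and none in the ratio.

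Fads1 (chr19:10182888-10196877, plus strand, mm10) showed the largest difference of the members in total mRNA. Its normalized counts ran from 3923.9 through a median of 5224.6 to 6532.6 in the 9 R98S libraries and from 5919.5 through 9660.7 to 11811.2 in the 8 WT libraries. Of the WT libraries 7 were above every R98S library, and the groups met only because clone 36 of number 3 stood at 5919, below the R98S libraries of clones 13 and 35 of number 2. The log2 fold change was −0.85 (standard error 0.14, limma adjusted p = 2.8e-04), and the call held in 42 of 42 alternatives. Its neighbor Fads2 (chr19:10062765-10101746, minus strand), the other desaturase of this pathway, ran from 2022.4 through 2322.7 to 3058.7 in R98S libraries and from 2352.9 through 3081.5 to 4116.0 in WT, and 5 R98S libraries were below every WT library. Fads2 fell by 0.36 on the log2 scale (standard error 0.11, limma adjusted p = 0.0262).

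Sqle (chr15:59315077-59331192, plus strand), which oxidizes squalene at a rate-limiting step of the sterol branch, ran from 1629.6 through 2192.3 to 3173.6 normalized counts in R98S libraries and from 2436.2 through 3139.3 to 3953.9 in WT total mRNA. The groups overlapped, with 6 R98S libraries below every WT library and 4 WT libraries above every R98S library. The log2 fold change was −0.46 (standard error 0.13, limma adjusted p = 0.0147).

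Pmvk (chr3:89454541-89469013, plus strand), phosphomevalonate kinase, ran from 121.6 through 283.3 to 506 in R98S libraries and from 361.2 through 440.7 to 508.9 in WT. Its log2 fold change was −0.61 (standard error 0.19, limma adjusted p = 0.0293), with 6 R98S libraries below every WT library. Mvd (chr8:122433601-122443422, minus strand), which makes isopentenyl diphosphate, ran from 384.3 through 464.3 to 938.7 in R98S libraries and from 450.9 through 703 to 945.9 in WT. Both groups covered nearly the same range, and the median differed. The highest R98S value came from clone 13 of number 3, and the other R98S libraries ran from 384.3 to 619.2. The log2 fold change of Mvd was −0.44 (standard error 0.16, limma adjusted p = 0.0583). Fdps (chr3:89093588-89101959, minus strand), farnesyl diphosphate synthase, had a log2 fold change of −0.41 (standard error 0.16, limma adjusted p = 0.0743), which held in only 20 of 42 alternatives. Of the exonic bases of Fdps 26.7% lay in exons of another gene model on the same strand, and how such reads were counted was not stated.

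Dhcr7 (chr7:143823145-143848410, plus strand) went the other way. It ran from 697.2 through 919.9 to 1405.8 normalized counts in R98S libraries and from 399.5 through 577.6 to 988.5 in WT total mRNA, and 6 of 8 WT libraries were below every R98S library. The WT library of clone 29 with number 2 was the highest of its group at 988.5. The log2 fold change was 0.68 (standard error 0.17, limma adjusted p = 0.00731), and the call held in 39 of 42 alternatives. With clone means, which leave 3 values against 3, the log2 fold change of Dhcr7 was 0.71 (limma adjusted p = 0.0357) and that of Fads1 −0.83 (adjusted p = 0.00209).

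**Figure D2:**
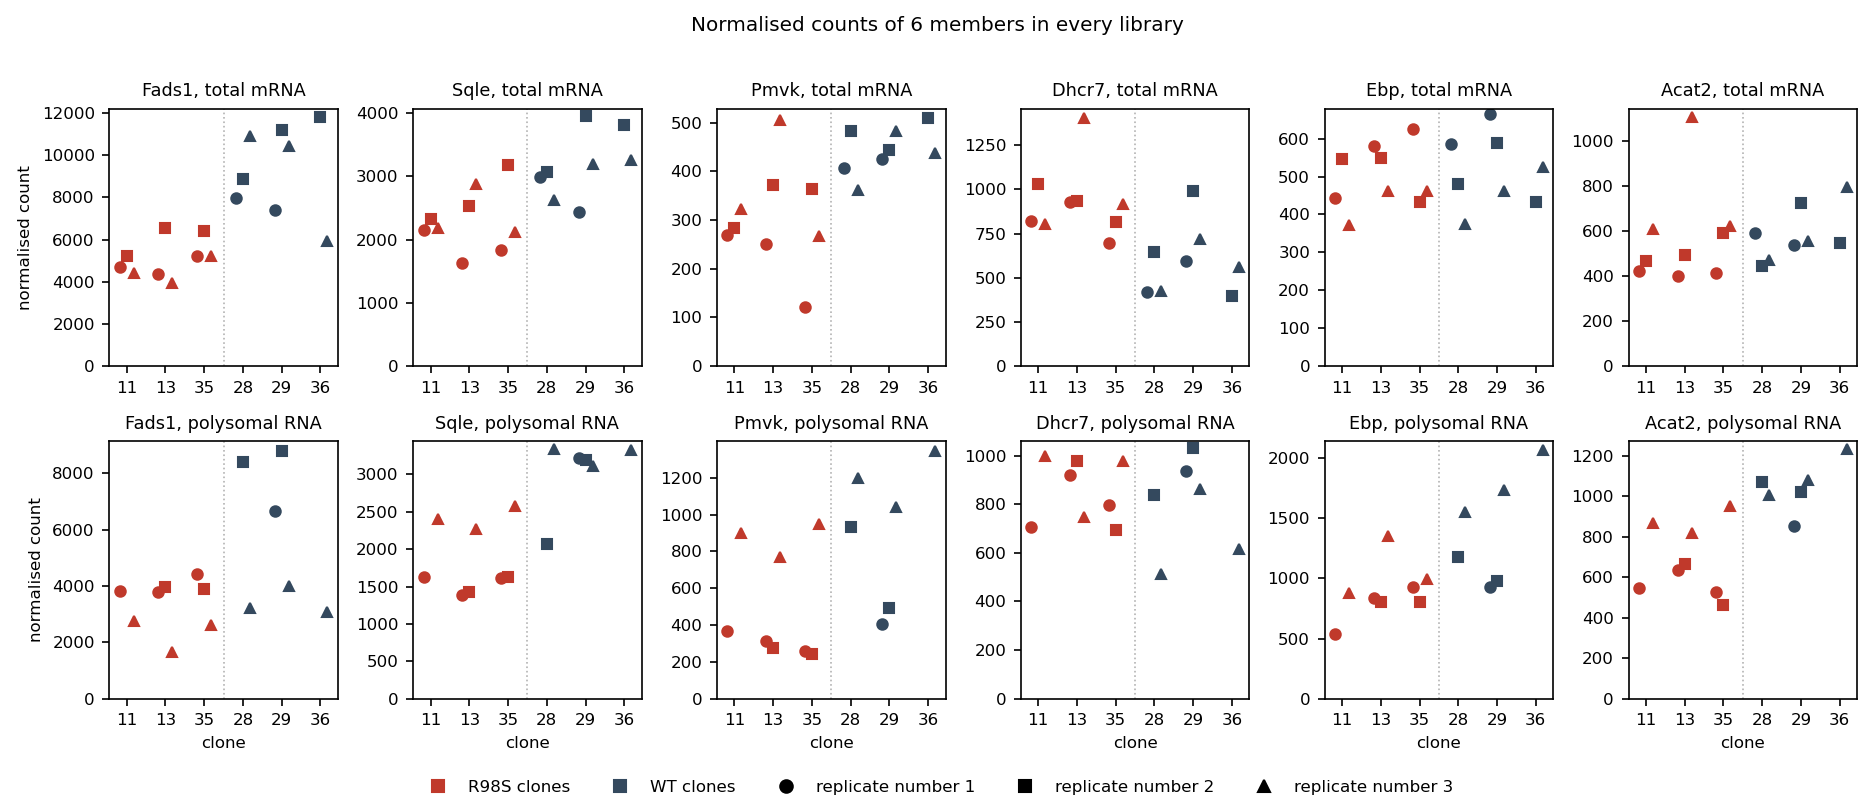
Normalized counts (y axis, from 0) of Fads1, Sqle, Pmvk, Dhcr7, Ebp and Acat2 in every library, by clone (x axis), with R98S clones in red, WT clones in dark blue and symbols for replicate numbers. In total mRNA 7 of 8 WT libraries of Fads1 lie above every R98S library, and in polysomal RNA 5 of 6 WT libraries of Acat2 do.

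The SREBP regulators were not called in total mRNA. The transcription factor genes Srebf1 and Srebf2 had log2 fold changes of 0.01 (95% interval −0.21 to 0.23) and −0.17 (−0.38 to 0.03), and Scap, the escort, 0.34 (−0.01 to 0.68, limma adjusted p = 0.150). The retention factors Insig1 and Insig2 were at −0.22 (−0.60 to 0.16) and −0.30 (−0.83 to 0.23), and Stard4, which carries sterol between membranes, at −0.15 (−0.42 to 0.12). Hmgcs1, which forms the HMG-CoA from which mevalonate is made, was at −0.04 (−0.59 to 0.50), an interval that holds the differences called for Mvd and Fdps. Fasn, the fatty acid synthase, and Acaca, the carboxylase that makes its malonyl-CoA, were at 0.38 (−0.06 to 0.81) and 0.21 (−0.07 to 0.48). Of the 30 members 20 had a difference below 0 in total mRNA, while 50.4% of all genes were above 0. Members share the same libraries, so their signs are not independent.

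Replicate numbers paired the samples, so the fit with the number as a block is given where it changed a call. In total mRNA the block fit called 19.9% of all genes lower and 18.5% higher, and of the members 7 lower and 1 higher. The added call was Scd2, at −0.31 (standard error 0.12, limma adjusted p = 0.0710 with the replicate block). That call was lost with the clone as a random term beside the block (adjusted p = 0.116), and was made in 3 of 42 alternatives. The call of Fdps ended in the same fit (adjusted p = 0.110), which left 6 members called beside 32.4% of all genes. Scd2 ran from 11679.0 through 14740.1 to 26953.8 in R98S libraries and from 13096.0 through 20700.2 to 32394.3 in WT libraries. Both directions together, 7 of 30 members were called, beside 30.3% of all genes. With number 1 alone 7 members were called beside 13.0% of all genes, with number 2 alone 1 beside 1.98%, and with number 3 alone 1 beside 9.54%. Leaving out R98S clone 11 left 3 calls beside 16.9% of all genes, and leaving out WT clone 29 left 3 beside 24.5%. Without clones 13 and 35 of number 2 there were 9 calls beside 34.2%.

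One total mRNA library stood apart for these genes. R98S clone 13 of number 3 was the highest R98S library for 17 of 30 members, and the mean of the 17 mevalonate and sterol branch enzymes was 0.71 above their average on the log2 scale. In the other 8 R98S libraries this mean lay between −0.29 and 0.13, and in WT libraries between −0.26 and 0.36. Idi1, the isomerase of isopentenyl diphosphate, stood at 3715.3 normalized counts there against 1735.4 in the next highest R98S library. Without this library 7 members were called in total mRNA, 1 higher and 6 lower, beside 28.4% of all genes, and the median log2 difference of the members was −0.20.

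**Figure D3:**
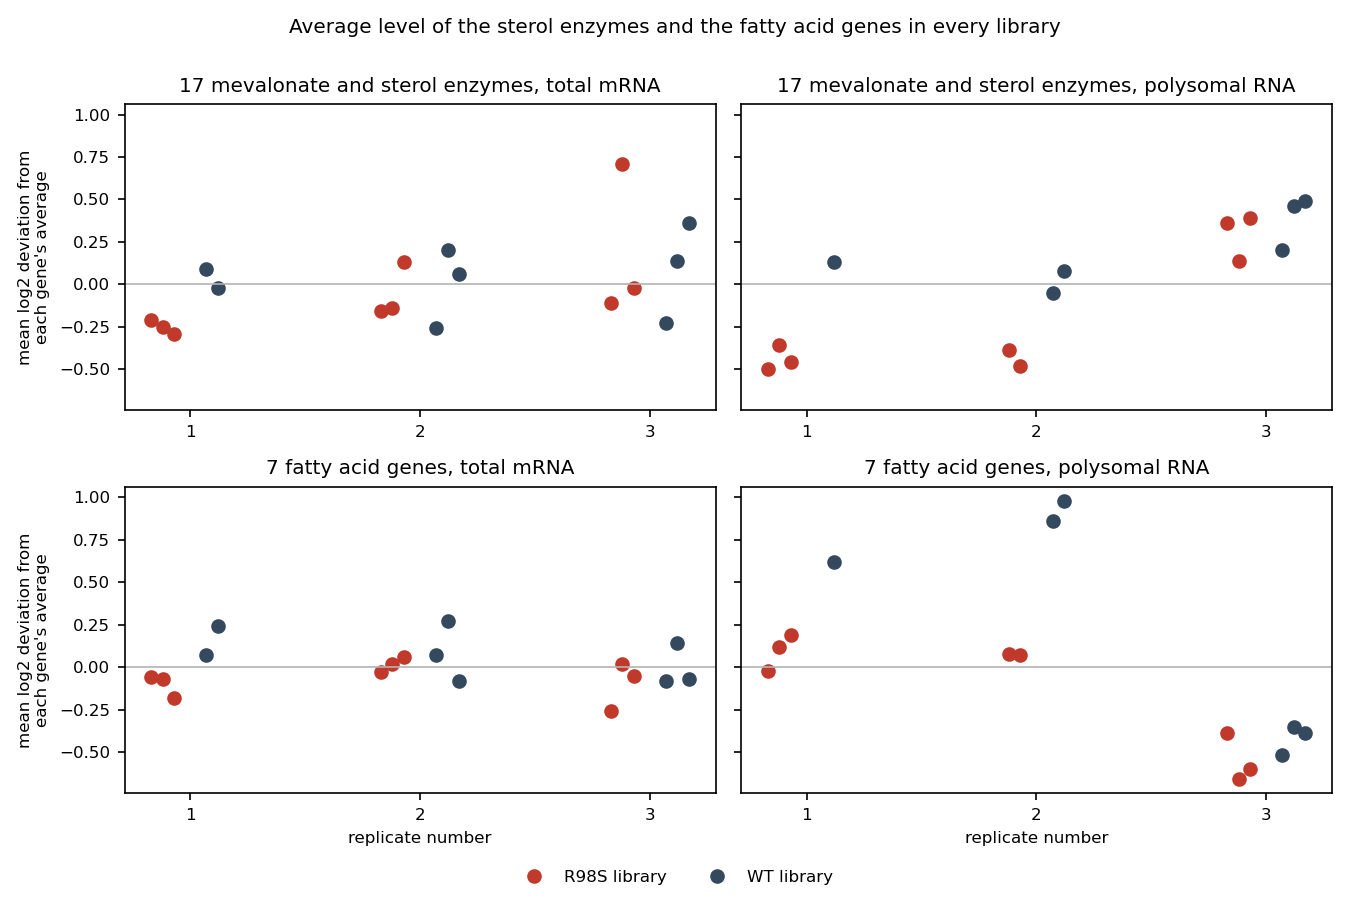
Mean log2 deviation from each gene's average (y axis) of the 17 mevalonate and sterol branch enzymes (top) and 7 fatty acid genes (bottom) in every library, by replicate number (x axis), R98S in red and WT in dark blue. The red point at 0.71 in total mRNA is R98S clone 13 of number 3, and in polysomal RNA the WT points of numbers 1 and 2 lie above the R98S points of the same number.

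In polysomal RNA 3 members were lower in R98S cells and none was higher. They were Acat2, which condenses acetyl-CoA at the entry of the mevalonate pathway, Sqle, and Ebp, the sterol isomerase. Over all 10707 genes 5.87% were lower and 7.66% higher, against 3 and 0 of 30 members. The median log2 difference was −0.33 over the members and −0.02 over all genes. Of the 30 members 24 were below 0, while 47.7% of all genes were above 0.

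Acat2 (chr17:12942890-12960747, minus strand) ran from 461.4 through 651.1 to 951.4 polysomal normalized counts in R98S libraries and from 854.6 through 1045.9 to 1233.4 in WT. The groups overlapped by a few libraries only, with 6 of 8 R98S libraries below every WT library. The log2 fold change was −0.64 (standard error 0.18, limma adjusted p = 0.0311). Of the 50-base stretches of Acat2 exons 39.1% also occur in other genes, mostly its near copy Acat3, so part of its reads is uncertain. Sqle ran from 1384.9 through 1627.4 to 2579.1 in R98S libraries and from 2073.9 through 3207.5 to 3347.1 in WT polysomal RNA. Its lowest WT library was clone 28 of number 2, and the other 5 WT libraries were above every R98S library. Sqle fell by 0.73 on the log2 scale (standard error 0.18, limma adjusted p = 0.0185).

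Ebp (chrX:8185329-8193512, minus strand) ran from 540.8 through 856.8 to 1351.4 in R98S libraries and from 930.8 through 1364.1 to 2066.3 in WT polysomal RNA, with 6 R98S libraries below every WT library. Its log2 fold change was −0.63 (standard error 0.22, limma adjusted p = 0.0886), and the call held in 15 of 38 alternatives. In total mRNA Ebp differed by −0.05 on the log2 scale (95% interval −0.31 to 0.22). Acat2 likewise was at −0.08 (−0.45 to 0.29) there. The ratio of polysomal to total was called for neither gene. It differed by −0.57 for Ebp (limma adjusted p = 0.888) and by −0.58 for Acat2 (adjusted p = 0.666).

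With the replicate number as a block 13 members were lower in polysomal RNA and none higher, against 15.7% of all genes lower and 15.2% higher. The 13 were Srebf2, 4 mevalonate pathway enzymes (Acat2, Pmvk, Mvd and Fdps), 4 enzymes of the sterol branch (Sqle, Cyp51, Tm7sf2 and Ebp), and 4 fatty acid genes (Acaca, Scd2, Fads1 and Fads2). Fads1 fell by 0.78 in that fit (standard error 0.14, limma adjusted p = 7.5e-04), and Fdps by 0.68 (standard error 0.16, adjusted p = 0.00546). Without the block Fads1 was at −0.68 and Fdps at −0.82 (limma adjusted p = 0.177 and 0.123). Genotype and replicate number were not balanced in the fit without the block. Numbers 1, 2 and 3 held 3, 2 and 3 R98S libraries and 1, 2 and 3 WT libraries. With clone means Fads1 was at −0.52 (limma adjusted p = 0.318) and Fdps at −0.90 (adjusted p = 0.0703). Srebf2, the transcription factor that favors sterol genes, ran from 1488.2 through 2840.5 to 3395.0 in R98S libraries and from 2561.7 through 3510.7 to 5159.4 in WT. It fell by 0.49 in the block fit (standard error 0.13, limma adjusted p = 0.0112) and had an adjusted p of 0.289 without the block. Keeping the clone as a random term beside the block left 9 members called, beside 22.2% of all genes. The calls lost were those of Mvd (limma adjusted p = 0.185), Cyp51 (0.112), Acaca (0.120) and Scd2 (0.138). With clone means 4 members were called, Acat2, Pmvk, Fdps and Sqle, beside 7.01% of all genes. Ebp and Srebf2 were not called there (limma adjusted p = 0.126 and 0.393). In the fit of clone means WT clone 36 was 1 polysomal library, of number 3, so the clone means also carried the replicate number. Pmvk was at −1.07 with clone means and at −0.72 with the block. Of the 50-base stretches of Acaca exons 30.4% also occur in other genes, mostly Gm5182, so its values here and in the ratio are uncertain. For Fdps the share was 26.2%, for Idi1 17.7%, for Tm7sf2 9.9% and for Fdft1 9.4%.

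The 7 fatty acid genes were lower in R98S polysomes in number 2 for 7 of 7 genes, with a median difference of −0.99, and in number 1 for 6 of 7, with −0.58. In number 3 the count was 4 of 7 and the median −0.02. For the 17 mevalonate and sterol branch enzymes the medians were −0.51, −0.57 and −0.01 for numbers 1, 2 and 3, against 0.04, −0.04 and −0.02 over all genes. Number 1 held a single WT polysomal library, clone 29. Pmvk stood at 404.2 in that library and between 257.4 and 368.2 in the 3 R98S libraries of number 1. In number 3 the R98S libraries of Pmvk reached 899.6, 770.7 and 950.1 and the WT libraries 1199, 1041 and 1343. A test of the difference of the genotype effect between numbers called no member, with 0.0280% of all genes called in polysomal RNA, 0% in total mRNA and 0.386% in the ratio.

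The ratio of polysomal to total normalized counts in the 14 matched cultures, a value relative to the typical gene of either table because both were scaled apart, gave no call for any member. Limma called 0.0470% of 10627 genes higher and 0% lower, or 0.367% and 0.0659% with the replicate block. Of the 30 members 3 had an unadjusted p under 0.05 (Acat2, Cyp51 and Acly), beside 6.46% of all genes, and with the replicate block 9 did, beside 12.1%. edgeR and DESeq2 on the recovered reads called 0 members as well. The ratio was below 0 in R98S against WT for 25 of 30 members, with a median of −0.30, while 5386 of 10627 genes were above 0 and their median was 0.01. All 17 mevalonate and sterol branch enzymes had a difference below 0, with a median of −0.32. The number below 0 was 14 of 17 without the culture of R98S clone 13 with number 3, 14 of 17 with clone means, and 12 of 17 in number 3 alone.

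Cyp51, the lanosterol demethylase, had the ratio between −0.75 and 0.55 in R98S cultures and between 0.14 and 0.55 in WT cultures, on the log2 scale. Only the number 3 cultures of R98S clones 11 and 35, at 0.551 and 0.490, reached into the WT range. The difference was −0.56 (standard error 0.22, unadjusted p = 0.0197, limma adjusted p = 0.666). Acat2 differed by −0.58 (standard error 0.23, limma adjusted p = 0.666), from −0.44 to 0.66 in R98S libraries and from 0.49 to 1.26 in WT. Acly, which cleaves citrate to acetyl-CoA, had a difference of −0.50 (standard error 0.23, limma adjusted p = 0.767) with R98S cultures between −1.73 and −1.16 and WT between −1.80 and −0.56. For Dhcr7, higher in R98S total mRNA, the ratio differed by −0.38 (95% interval −0.78 to 0.02, limma adjusted p = 0.799) and the polysomal level by 0.12 (−0.25 to 0.50). For Fads1 the ratio differed by 0.14 (−0.45 to 0.73).

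**Figure D4:**
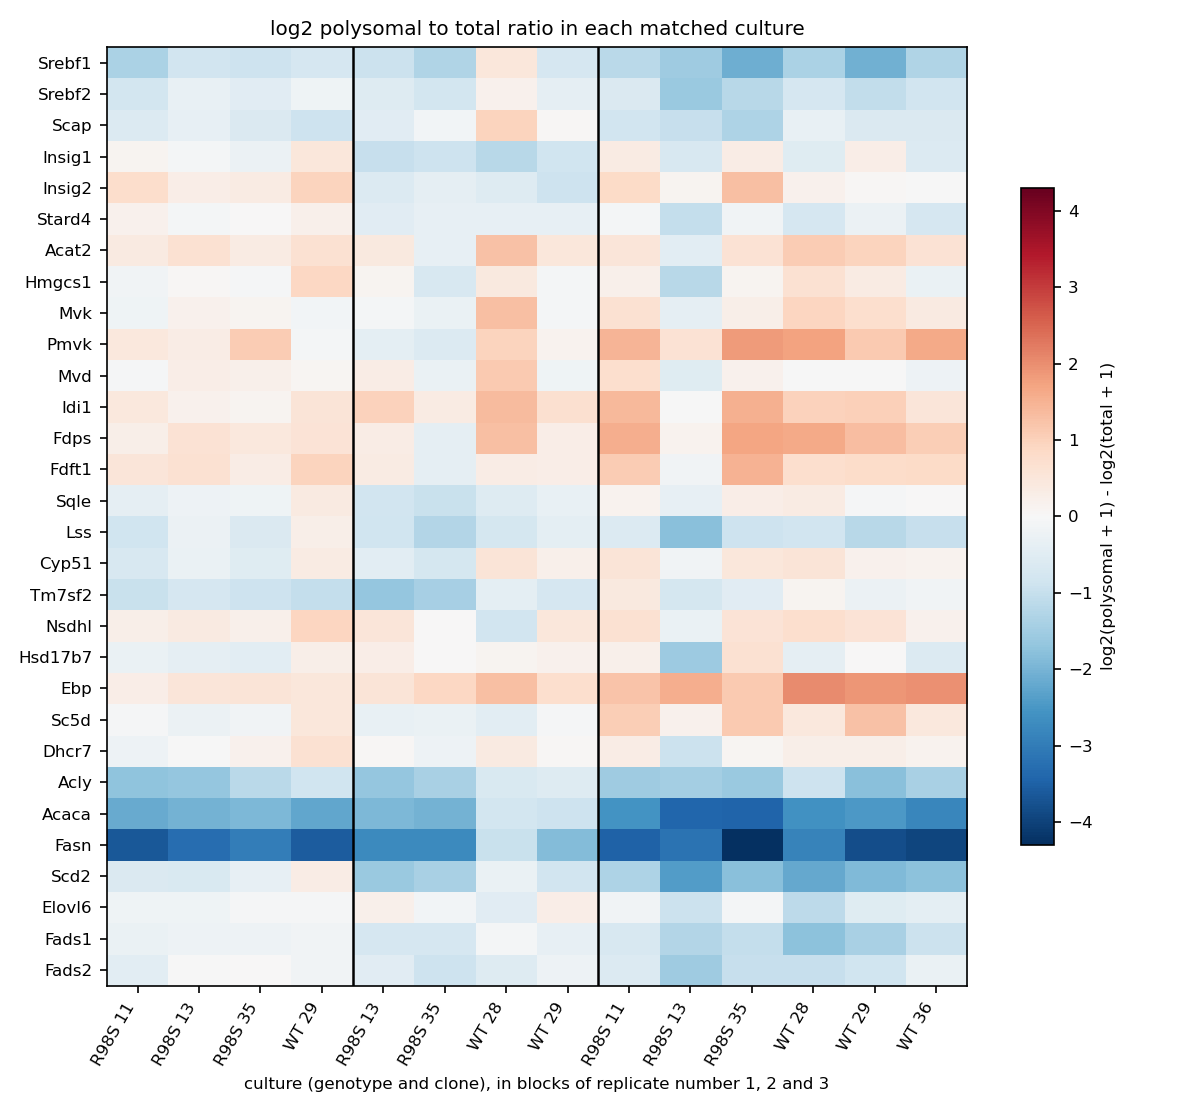
Log2 polysomal to total ratio (color, blue below 0 and red above) of 30 members (y axis) in each of the 14 matched cultures (x axis), in blocks of replicate number. Fasn and Acaca are lowest in nearly every culture and Ebp is above 0 in all of them.

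Members differed more from each other in this ratio than between genotypes. Fasn had the lowest mean, −3.10 ± 0.87 (SD, n = 14 cultures), and 0.311% of all genes had a lower one. Acaca stood at −2.23 ± 0.77, Acly at −1.31 ± 0.41, Scd2 at −1.20 ± 0.81 and Srebf1 at −1.13 ± 0.64. Ebp had the highest mean ratio, 1.08 ± 0.60, above that of 98.9% of genes, followed by Fdps at 0.78 ± 0.65, Pmvk at 0.73 ± 0.79 and Idi1 at 0.72 ± 0.50, which lay within each other's spread. Fasn was at −0.95 in WT clone 28 of number 2 and at −1.868 in WT clone 29 of number 2, and from −4.28 to −2.73 in the 8 R98S cultures. The remaining 4 WT cultures lay between −3.96 and −2.87.

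Replicate number moved more members than genotype. An F test over the numbers, with genotype in the model, called 12 of 30 members for total mRNA, 23 for polysomal RNA and 20 for the ratio, beside 43.5%, 64.9% and 71.3% of all genes. In polysomal RNA 13 of the 23 were higher in number 3 than in the mean of numbers 1 and 2, and 10 were lower. For these directions no share over all genes is given, and their split by role was not tested. The higher ones held 6 of 7 mevalonate pathway enzymes, such as Pmvk (1.36 on the log2 scale, limma adjusted p = 3.0e-05) and Idi1 (1.09, adjusted p = 2.2e-06). The lower ones held 6 of 7 fatty acid genes, such as Scd2 (−1.46, limma adjusted p = 1.5e-04) and Acaca (−1.36, adjusted p = 6.6e-06), and also Srebf1, Srebf2 and Scap. Both directions together, 85.7% of either role was called, beside 64.9% of all genes. Transcript length moved with this shift: across genes Pearson's r between the shift and log2 of the longest annotated transcript was −0.64 for the 30 members and −0.55 for 10198 genes in polysomal RNA, and −0.31 and 0.07 in total mRNA. Genes are not independent points, since they share the same libraries. The genotype difference in polysomal RNA had an r of 0.26 with length over the members and 0.05 over all genes. The part of transcript length in the differences was not tested.

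**Figure D5:**
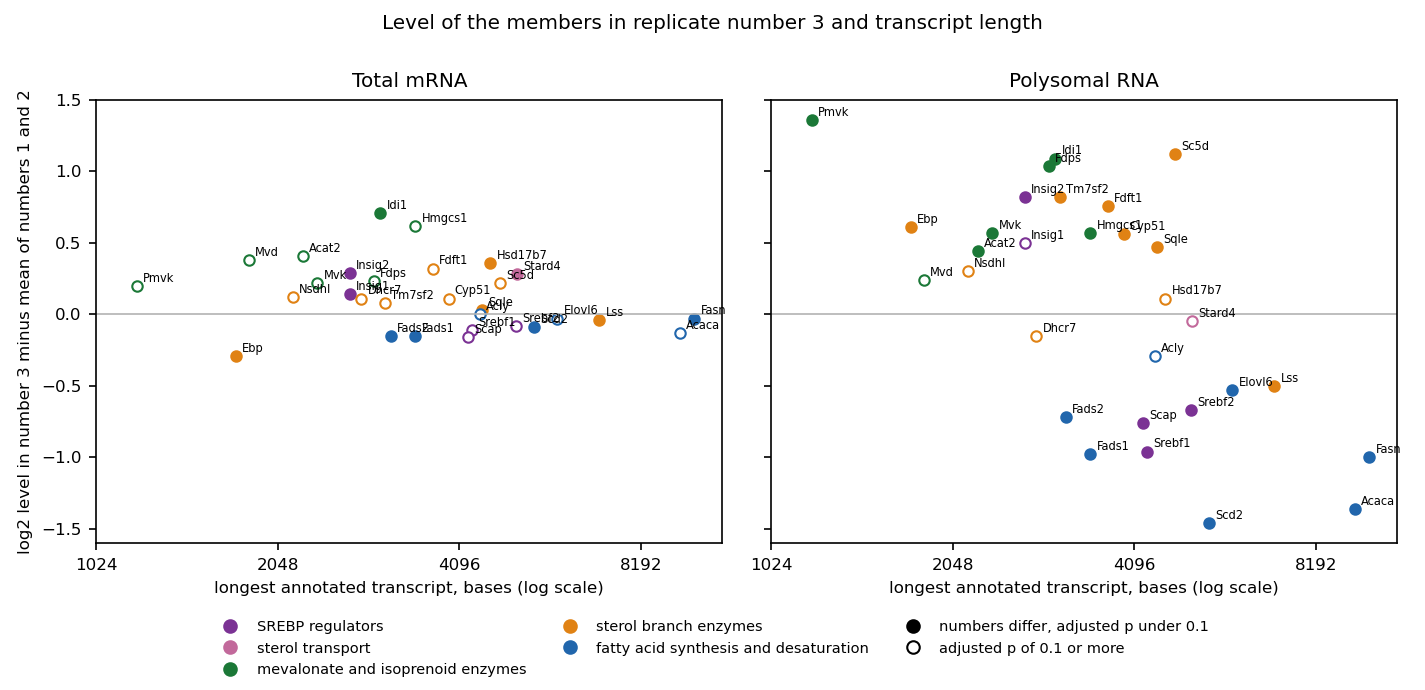
Level in replicate number 3 minus the mean of numbers 1 and 2 (y axis, log2, genotype in the model) against the length of the longest annotated transcript (x axis, log scale) for 30 members, colored by role, filled where the numbers differed. In polysomal RNA the short Pmvk lies at 1.36 and the long Acaca at −1.36, and in total mRNA the points lie between −0.29 and 0.71.

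Clones of one genotype differed in 4 members in polysomal RNA, beside 4.17% of all genes: Insig1 (limma adjusted p = 0.0475), Elovl6 (0.0690), Stard4 (0.0739) and Sc5d (0.0794). No member differed between clones in total mRNA, where 1.88% of genes did, or in the ratio, where 0% did. Groups that did not overlap at all were seen for no member, against 3.53% of genes in total mRNA and 4.96% in polysomal RNA.

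Other genes of the same pathways, taken from lists of companions, were described in the same fits. Of 14 tested sterol and SREBP pathway genes 3 were lower and 1 higher in total mRNA (21.4% and 7.14%), against 15.8% and 14.5% of all genes. The lower ones included Lbr, a sterol reductase of the inner nuclear membrane (−0.52, limma adjusted p = 0.00229) and Mbtps2, an intramembrane protease that releases SREBPs (−0.65, adjusted p = 0.0241). Mbtps2 was also the 1 gene of that list lower in polysomal RNA (−0.81, limma adjusted p = 0.0628), beside 5.87% of all genes. With the replicate block 6 of 14 were lower there, beside 15.7% of all genes. With the clone as a random term as well 4 were lower, beside 10.8%. In total mRNA the block added Mbtps1, a protease that cleaves SREBPs (−0.26, limma adjusted p = 0.0392).

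Of 23 tested genes of other fatty acid and lipid synthesis, 6 were lower and 3 higher in total mRNA, which is 26.1% and 13.0% of them, against 15.8% and 14.5% of all genes. In polysomal RNA 3 were lower (13.0%) and 1 higher (4.35%), against 5.87% and 7.66% of all genes. Acss2, which makes acetyl-CoA from acetate, was higher in total mRNA (1.16, SE 0.17, limma adjusted p = 8.1e-05) and in polysomal RNA (1.43, SE 0.27, adjusted p = 0.00255). Tecr, the reductase of fatty acid elongation, was lower in both (−0.61, limma adjusted p = 7.5e-04, and −1.03, adjusted p = 9.8e-04), and Acsl1, an acyl-CoA synthetase, was lower in total mRNA (−0.83, adjusted p = 0.00431). With the replicate block Acsl1 was also lower in polysomal RNA (−0.75, limma adjusted p = 5.4e-04), and in total mRNA Elovl5 was lower (−0.26, adjusted p = 0.0677) and Mecr higher (0.35, adjusted p = 0.0781). The block gave 7 lower and 4 higher genes of that list in total mRNA, beside 19.9% and 18.5% of all genes. With the clone as a random term as well the counts were 5 and 3, beside 17.1% and 15.3%. The cholesterol export, esterification and lysosomal release list had 4 of 9 genes lower and none higher in total mRNA, among them Abcg1, a sterol exporter (−0.89, limma adjusted p = 0.00900), and none called in polysomal RNA, against 15.8% of all genes lower in the first and 5.87% in the second. With the replicate block 2 of the 9 were lower in polysomal RNA, beside 15.7% of all genes. They were Abcg1 (−0.42, limma adjusted p = 0.0836) and Scarb1 (−0.33, adjusted p = 0.0952). With the clone as a random term as well none was lower, beside 10.8% of all genes. Of 13 genes of fatty acid oxidation 2 were lower (15.4%) and 1 higher (7.69%) in total mRNA, against 15.8% and 14.5% of all genes, among them Etfdh (−0.41, limma adjusted p = 0.0150), and 2 (15.4%) were lower in polysomal RNA, against 5.87% of all genes. No gene of these 4 lists was called for the ratio.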

How the data were processed

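The members and lists were chosen with earlier results of these data known. Libraries were made with the TruSeq Stranded mRNA kit. According to the study's methods and the submitters' processing notes, the authors trimmed reads with seqtk, removed ribosomal and transfer RNA reads with Bowtie2, aligned the rest with TopHat2 2.0.11 to mm10, counted reads on exons and normalized with DESeq2. HTSeq is named in the notes, and the annotation and strand setting are not given in the sources used here. The deposited values are normalized counts (a depth-corrected signal), one table for total mRNA and one for polysomal RNA, each normalized separately. Whole reads were recovered for 100.0% of values within 1e-06.

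Groups followed the labels. Genes with a mean of at least 10 were tested on log2(value + 1) with limma 3.58.1 (R 4.3.3, trend on the mean, two-sided), R98S against WT, adjusted by Benjamini-Hochberg over all genes and called below 0.1. Intervals used limma's moderated t distribution. Fold changes on this scale understate changes of low genes. The ratio was the difference of log2 values per culture, and 3 total libraries without a polysomal mate were left out of it. F tests covered replicate number, clone within genotype and the genotype by number interaction, those on the ratio being added after seeing the data. The named genes were all members, Rpl10, up to 3 genes per companion list and comparison, and marker genes, and some of these are not reported here. Samples with the same number deviated together (correlation of their deviations from the genotype mean 0.48 to 0.87), which is where the pairing comes from. edgeR 4.0.16 on recovered reads called 3321 genes for total mRNA and 1450 for polysomal RNA, and DESeq2 1.42.0 called 3555 and 1909. The study excluded the total library of WT clone 36 with number 1, which grouped with the R98S libraries in its principal component analysis. That library was not analysed here, so the choice of WT libraries rested in part on the genotype contrast. Gene positions come from GENCODE (mm10). The fits were tested on simulated data, and the outcome is not reported here. Other alternatives are named in the closing section.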

Additional observations from a re-analysis of the deposited data

Results flagged for a closer look

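Of 180 groups of values examined (30 members, 2 genotypes, 3 measures), 16 had a library or culture far from the others of its group. For independent groups chance gives about 9, or 1 in 20. The groups share libraries and cultures, so 16 against 9 does not measure an excess. In total mRNA the library of R98S clone 13 with number 3 stood far above the others of its group of 9 for 10 members. Its normalized counts were 1109.2 for Acat2 (others 400.9 to 622.7), 3401.6 for Hmgcs1 (871.1 to 2095.1), 938.7 for Mvd (384.3 to 619.2), 3715.3 for Idi1 (922.4 to 1735.4) and 2249.6 for Fdps (853.3 to 1357.5). They were 1368.4 for Fdft1 (503.1 to 712.8), 1456.4 for Nsdhl (726.2 to 961.4), 992.5 for Hsd17b7 (320.1 to 583.4), 1405.8 for Dhcr7 (697.2 to 1033.0) and 8622.3 for Acly (4423.7 to 6085.3). These 10 values come from 1 library and are not independent of each other. In polysomal RNA the library of the same culture was the highest of 8 for Acly, at 3104.1 against 1507.8 to 1977.6. In the log2 ratio this culture was the lowest of 8 for Dhcr7, at −0.91 against −0.23 to 0.31, and for Elovl6, an elongase of fatty acids, at −0.91 against −0.18 to 0.23.

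Elovl6 was highest in total mRNA of R98S clone 11 with number 1, at 2418.3 normalized counts against 1217.7 to 1657.3. WT clone 28 with number 2 was the lowest of 6 for Sqle in polysomal RNA, at 2073.9 against 3118.8 to 3347.1, and the highest of 6 for Mvd in the log2 ratio, at 1.14 against −0.22 to 0.10.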

How the results depend on the processing

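The 7 calls in total mRNA became 3 without R98S clone 11 (16.9% of all genes called) and 3 without WT clone 29 (24.5%). They became 1 with number 2 alone (1.98%) and 1 with number 3 alone (9.54%). When a library, number or clone was left out they ranged from 3 to 10. The count was 4 without number 2 (21.8%) and 10 without WT clone 29 of number 1 (34.8%). The 3 calls in polysomal RNA became 5 with DESeq2 (17.8% of all genes called), 13 with the replicate block (30.9%), 7 with the clone as a random block (16.8%), 9 with both (22.2%), and 1 without R98S clones 13 and 35 of number 2 (9.05%), against 13.5% as reported. They ranged from 0 to 15 when a number, clone or library was left out: 0 without number 1 (5.60% of all genes called), 1 without number 2 (10.4%), 15 without number 3 (19.3%), 5 without R98S clone 11 or clone 35 of number 3, 6 without R98S clone 13 of number 3, and 5 without WT clone 29 of number 1. The ratio gave 0 calls throughout. Among genes of the companion lists the replicate block added 3 calls (total mRNA) and 8 (polysomal), with none removed, and it changed no member's call in the genotype comparisons beyond those given. The 4 members that differed between clones in polysomal RNA became 0 with no filter on low values, a fit over 19945 genes. In polysomal RNA Cyp51 was at 0.00 with number 3 alone and Acaca at 0.03 without number 2. Acaca ranged from −0.70 to 0.03 when a number, clone or library was left out. The cause was not tested. The fits of single numbers, those without R98S clones 13 and 35 of number 2, the random clone term beside the block, and the F tests on the ratio were chosen after seeing the data. Scd1 was below the depth needed for a test.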

Other observations

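After genotype and number means were removed, 13 of the 17 mevalonate and sterol branch enzymes correlated above 0.7 with the mean of the other enzymes over 17 total mRNA libraries, which share depth and preparation. The median r was 0.81, with Fdps at 0.94 and Ebp at 0.30. Without R98S clone 13 of number 3 the count was 10 of 17 and the median 0.76, and Dhcr7 moved from 0.40 to 0.08. Outside the enzymes, Stard4 followed them with 0.71 (0.80 without that library) and Acly with 0.82 (0.56 without it). Acaca, Fasn and Fads2 stood at 0.49, 0.40 and 0.33 (0.17, 0.35 and 0.36 without that library). Scd2, Elovl6 and Fads1 stood at −0.03, −0.04 and −0.39. In polysomal RNA the count was 4 of 17 over 14 libraries and the median 0.50. With only genotype means removed the order turned, with 8 of 17 (median 0.69) in total mRNA and 11 of 17 (median 0.78) in polysomal RNA. These are descriptions of the libraries, with no test.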
